A study of Mus musculus with 4 samples.

Results

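The 10 genes described here are readouts and regulators of canonical Wnt signalling: the transcription factors Tcf7 and Lef1, the feedback inhibitors Axin2 and Nkd1, the R-spondin receptors Lgr5 and Lgr6, the ubiquitin ligases Znrf3 and Rnf43, and the secreted R-spondins Rspo2 and Rspo3. They were taken by symbol from a table of 24972 genes, all 10 had a row, and all 10 passed the filter on low values. They were measured by RNA-seq in mouse embryos at day 17.5, in dissected mandibular dental arches, the stretch of jaw that holds the lower teeth. The mutant group had 2 libraries, 18 and 14, whose embryos carried an Ascl5 variant on both alleles (Ascl5Mut/Mut), and the wild-type group had 2, 15 and 20, from Ascl5WT/WT embryos. The labels give no strain and leave out how the variant alters the protein or the transcript. Beyond being separate samples, nothing is said of the libraries, so some of the spread among these 4 may be technical. Every p-value rests on that spread, and those from limma also borrow from the spread of other genes.

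When a Wnt ligand reaches its Frizzled receptor, beta-catenin escapes destruction, enters the nucleus and acts with TCF/LEF factors to switch on target genes. Axin2 and Nkd1 are among those targets, and their products damp the pathway. Znrf3 and Rnf43 remove Frizzled receptors from the cell surface, and R-spondins, bound to Lgr receptors, block this removal and so raise Wnt sensitivity. In the mouse, tooth formation needs Lef1, and Lgr5 marks stem cells of the incisor epithelium. The product of Ascl5 is a transcription factor of the basic helix-loop-helix class.

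Values are normalized counts as the authors scaled them, which summed to 22134483 to 22578580 per library, so that no library stood apart in its total. The raw depth is not known. Wild-type library 15 was high for Xist and at 0 for the Y-linked gene Ddx3y, and the other 3 libraries were the reverse, so the sexes were not balanced between genotypes. Every gene in the marker lists of dental epithelium, dental mesenchyme, osteoblast and cartilage was above 0 in all 4 libraries. Mutant library 14 stood apart in salivary gland genes, with 6175 normalized counts over 7 genes against 45.9 in mutant library 18 and 21.7 and 4.98 in wild-type libraries 15 and 20. In that list Dcpp1, Dcpp2, Smgc, Muc19 and Bpifa2 were at 0 in at least 1 library. Genes of lining and skin keratinocytes summed to 178832 and 266483 in mutant libraries 18 and 14, against 115263 and 115165 in wild-type libraries 15 and 20, and 8 of 10 were higher in mutant with no overlap. Dental epithelium genes overlapped in sum (10994 and 8085 in mutant, 6687 and 14888 in wild type), as did those of skeletal muscle (153999 and 80376 in mutant, 134939 and 101059 in wild type), endothelium (10623 and 10027 in mutant, 10410 and 10087 in wild type) and macrophages (7464 and 5107 in mutant, 5283 and 6142 in wild type). Neuron and Schwann cell genes summed to 1558 and 2418 in mutant and 1452 and 1447 in wild type, and 4 of 6 were higher in mutant with no overlap. So were 3 of 5 macrophage genes, although their sums overlapped, and 2 of 5 general epithelial genes. Of 9 dental epithelium genes, 1 was higher and 2 were lower likewise, and 0 of the skeletal muscle or endothelium genes were either. Over all genes tested, the genotypes did not overlap for 27.4%, both directions counted. Within each genotype the libraries differed widely in enamel matrix genes of the dental epithelium list. Enam was at 1570 and 232 in mutant libraries 18 and 14 and 175 and 1490 in wild-type libraries 15 and 20. Amelx (2421 and 868 in mutant, 263 and 1621 in wild type) and Ambn (1383 and 540 in mutant, 802 and 2491 in wild type) were split likewise. Their part in the values of the 10 genes was not tested. Ascl5 itself was at 10.6 and 12.1 in mutant libraries and 21.8 and 37.3 in wild-type libraries.

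For 6 of the 10 genes the genotypes overlapped, and Tcf7, lower in both mutant libraries, had the smallest p of the set without passing the threshold. Of the 10 genes, 5 lay higher and 5 lower in mutant, with a median log2 fold change of 0.02 beside 0.00 over all genes tested. None of the 10 passed an adjusted p of 0.05 (limma, Benjamini-Hochberg over 17979 genes, of which 0.0111% were called), and 1, Tcf7, had an unadjusted p under 0.05, where the share over all genes was 4.27%. The genotypes did not overlap for 4 of the 10, with Tcf7 and Rspo2 lower and Lgr6 and Rspo3 higher in mutant, beside 27.4% of all genes. With libraries of whole tissue, fewer cells of a type and less RNA per cell cannot be told apart.

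**Figure D1:**
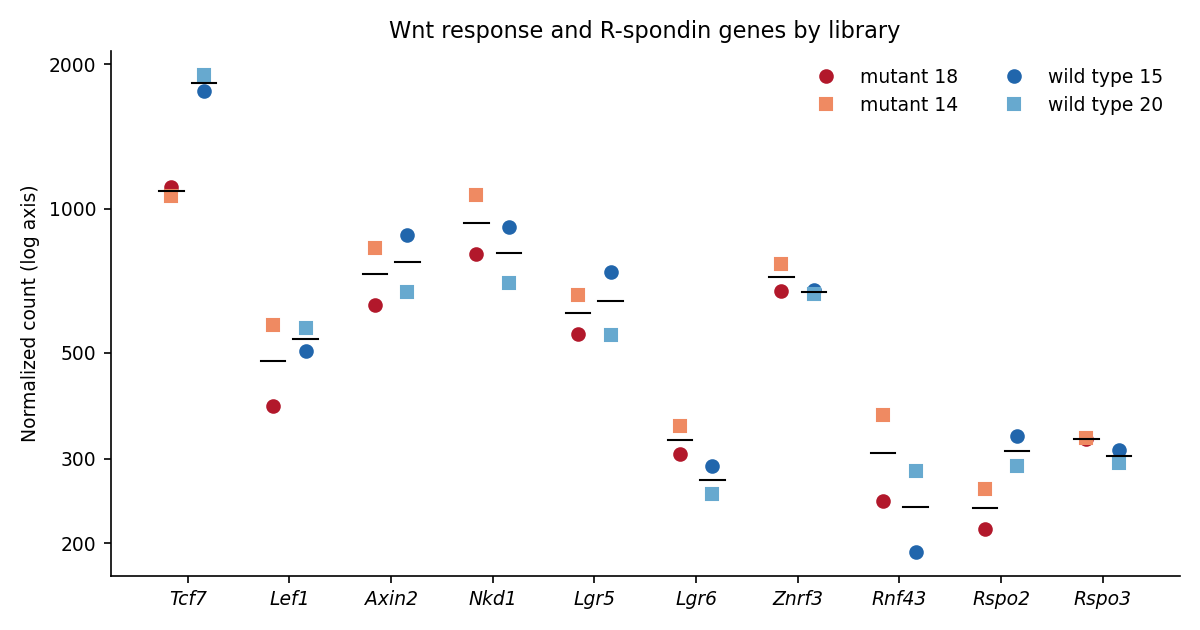
Normalized counts (log axis) of the 10 genes in mutant libraries 18 and 14 and wild-type libraries 15 and 20; points are libraries and black bars genotype means. Tcf7 has the widest gap between genotypes, at 1109 and 1065 in mutant and 1762 and 1905 in wild type.

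The stretch of DNA before an annotated start was read for 2 genes, because Tcf7 had the smallest p of the 10 and Nkd1, a target with more motif matches, overlapped between genotypes. Sequences are the 250 bases before a RefSeq start on GRCm38.p6, 5′ to 3′ on the gene's strand. Capitals mark CAGCTG, an E-box, the kind of short site that basic helix-loop-helix factors bind, which reads the same on both strands.
Tcf7 (chr11:52283015-52283264, minus strand): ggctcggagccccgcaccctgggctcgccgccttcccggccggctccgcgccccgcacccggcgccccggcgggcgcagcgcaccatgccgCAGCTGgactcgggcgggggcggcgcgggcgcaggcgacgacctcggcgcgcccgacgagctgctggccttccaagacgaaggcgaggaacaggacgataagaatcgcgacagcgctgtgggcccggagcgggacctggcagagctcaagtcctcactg
Nkd1 (chr8:88527383-88527632, plus strand): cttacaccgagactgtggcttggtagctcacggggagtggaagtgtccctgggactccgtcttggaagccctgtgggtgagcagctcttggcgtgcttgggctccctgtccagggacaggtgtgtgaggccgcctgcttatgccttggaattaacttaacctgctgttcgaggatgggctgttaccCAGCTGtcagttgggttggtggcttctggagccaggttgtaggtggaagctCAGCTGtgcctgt
The Nkd1 start is a RefSeq one that lies inside the GENCODE span of the gene, so other annotated exons precede it. The CAGCTG match lies 159 bases before the start in Tcf7, and the matches lie 64 and 13 bases before it in Nkd1. The Tcf7 match lies within an open reading frame. An ATG 6 bases before it opens 55 codons with no stop up to the end of the window. Whether that frame is coding was not tested, so the match cannot be assumed to lie in non-coding DNA before the gene. The RefSeq table held 11 start sites for 6 of the 10 genes. CAGCTG was present at 4 of these 11 (1 window each of Tcf7, Nkd1, Lgr6 and Lef1), and at 13.0% of all 32851 windows of the same length. The Lef1 window with the match (131112541 to 131112790) also lies inside the GENCODE span of its gene. The 11 windows are not separate, since Lef1, Tcf7 and Rnf43 have several each and some Lef1 windows overlap. Whether the 11 differ from all windows was not tested. The TCF/LEF core CTTTGAT, searched on both strands, was present at 0 of the 11 and at 3.21% of all windows. No match of one motif therefore overlapped the other, and a match describes letters in a window, not a bound site.

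Tcf7, also called TCF1, is an HMG-box factor that carries beta-catenin to target genes (chromosome 11, 52252371 to 52283014, GRCm38). It had 1109 and 1065 normalized counts in mutant libraries 18 and 14, against 1762 and 1905 in wild-type libraries 15 and 20. Both mutant libraries lay far below both wild-type libraries, and the libraries of each genotype lay close together. The means were 1087 ± 31.6 in mutant and 1834 ± 101 in wild type (SD, n = 2 each), a ratio of 0.593. The log2 fold change was -0.75 (SE 0.13, 95% interval -1.06 to -0.45). Its unadjusted p was 0.000506, the 22nd smallest of 17979, and it did not pass over all genes (limma, adjusted p = 0.310). With each library left out in turn it stayed between -0.81 and -0.70, and the -0.81 came without wild-type library 15, the one high for Xist.

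Tcf7 is also a T cell gene, so T cell genes were read, a list chosen after the values were seen. The receptor genes Cd3d, Cd3e, Cd3g and Cd8a were at 0 to 4.91 normalized counts in all 4 libraries. Cd4 was at 29.5 and 19.3 in mutant libraries 18 and 14 and 27.3 and 13.8 in wild-type libraries 15 and 20, and the kinase gene Lck at 39.1 and 50.8 in mutant and 35.6 and 37.4 in wild type. Of the 8 genes of that list, 2 were higher (Lck and Cd2) and 1 lower (Cd3g) in mutant with no overlap. Cd2 was at 1.90 and 2.03 in mutant libraries 18 and 14 and 0 and 0.985 in wild-type libraries 15 and 20. Cd3g was at 2.86 and 4.04 in mutant and 4.22 and 4.91 in wild type, so both genes were near 0. Together, with most of the sum from Thy1, the 8 genes came to 601 and 737 in mutant libraries 18 and 14. In wild-type libraries 15 and 20 they came to 537 and 643. Dental mesenchyme markers moved with Tcf7: they summed to 4247 and 4532 in mutant libraries 18 and 14 and 5320 and 6748 in wild-type libraries 15 and 20, and 5 of 7 (Barx1, Msx1, Lhx6, Dlx1 and Dlx2) were lower in mutant with no overlap. Of the osteoblast markers 4 of 6 were lower likewise (sums 113528 and 74097 in mutant, 106423 and 119843 in wild type), as were 3 of 5 cartilage markers (sums 30921 and 26584 in mutant, 46464 and 32902 in wild type). For these counts and those of the T cell genes, the share over all genes was 27.4%, both directions counted. The part of these tissues in the Tcf7 difference was not tested.

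Lef1, the other TCF/LEF factor among the 10 (chromosome 3, 131110471 to 131224356), had 388 and 572 normalized counts in mutant libraries 18 and 14, and 505 and 562 in wild-type libraries 15 and 20. The genotypes overlapped, because mutant library 14 was the highest of the 4 and mutant library 18 the lowest. Its log2 fold change was -0.18 (SE 0.21, 95% interval -0.67 to 0.31), and it turned to 0.10 without mutant library 18.

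Within a library, the ratio of Lef1 to Tcf7 does not depend on how libraries were scaled to each other. It was 0.350 and 0.537 in mutant libraries 18 and 14, and 0.287 and 0.295 in wild-type libraries 15 and 20. Both mutant ratios lay above both wild-type ratios, but the mutant libraries differed widely. The log2 difference was 0.58, 0.27 without mutant library 14 and 0.89 without mutant library 18. In an exact two-sided permutation test, 2 of the 6 ways to assign the libraries gave a difference as large, the fewest that 2 libraries per genotype allow, so this design cannot pass 0.05 (adjusted p = 0.444 over the 4 ratios tested).

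Set beside Tcf7l1 and Tcf7l2, the remaining TCF/LEF genes, Tcf7 made up a smaller part of the family in mutant. Per kilobase of exon, Tcf7 was 43.2% and 36.4% of the family's sum in mutant libraries 18 and 14, and 48.1% and 54.3% in wild-type libraries 15 and 20. Tcf7l1, mostly a repressor of Wnt targets, was 38.6% and 42.2% in mutant and 36.1% and 30.3% in wild type. Tcf7l2 was 13.7% and 15.6% in mutant and 11.8% and 10.6% in wild type, while Lef1 stayed between 4.11% and 5.84% with overlap. The counts of Tcf7l1 (1665 ± 257 in mutant, 1781 ± 275 in wild type) and Tcf7l2 (1351 ± 240 in mutant, 1342 ± 140 in wild type) did not separate. The summed family level per kilobase was 979 and 1115 in mutant libraries and 1396 and 1336 in wild-type libraries, with no overlap under the deposited scaling, library totals or the upper quartile. Without Tcf7 the sums overlapped, at 557 and 709 in mutant and 725 and 609.9 in wild type.

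**Figure D2:**
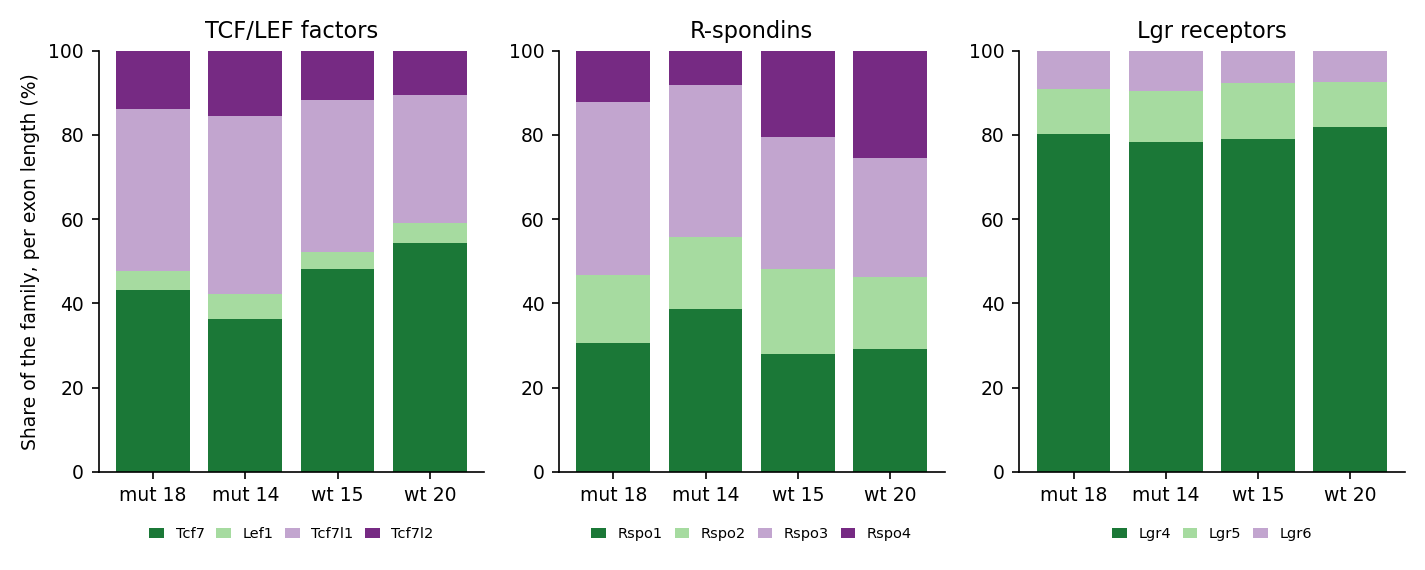
Share (%) of each gene in its family's summed normalized count per kilobase of exon, one bar per library, for TCF/LEF factors, R-spondins and Lgr receptors. Tcf7 makes up between 36.4% and 43.2% of its family in mutant and 48.1% and 54.3% in wild type, and Rspo4 between 8.08% and 12.2% in mutant and 20.5% and 25.4% in wild type.

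Axin2 is a scaffold of the beta-catenin destruction complex and a widely used Wnt readout (chromosome 11, 108920349 to 108950783). It had 628 and 829 normalized counts in mutant libraries 18 and 14, against 881 and 668 in wild-type libraries 15 and 20. Each genotype had a high and a low library, and the ranges overlapped over most of their width. Mutant minus wild type on the log2 scale was -0.09 (SE 0.20, 95% interval -0.55 to 0.38). The direction turned to higher without wild-type library 15 (0.11) or mutant library 18 (0.11).

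Nkd1, which binds Dishevelled and restrains the pathway (chromosome 8, 88521354 to 88594884), had 802 and 1067 normalized counts in mutant libraries 18 and 14, against 914 and 699 in wild-type libraries 15 and 20. Mutant library 14 was the highest and wild-type library 20 the lowest, with the others between them. The log2 fold change was 0.21 (SE 0.20, 95% interval -0.25 to 0.67) and came to 0.0049 without mutant library 14 and 0.02 without wild-type library 20.

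Lgr5, a receptor for R-spondins (chromosome 10, 115450311 to 115587780), had 548 and 660 normalized counts in mutant libraries 18 and 14, against 737 and 543 in wild-type libraries 15 and 20. As with Axin2, libraries 14 and 15 were the higher of their genotypes and the genotypes overlapped. Its log2 fold change was -0.07 (SE 0.19, 95% interval -0.53 to 0.38). It turned to 0.15 without wild-type library 15 and to 0.06 without mutant library 18.

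Lgr6, its relative in skin and hair follicle (chromosome 1, 134983301 to 135105276), had 307 and 351 normalized counts in mutant libraries 18 and 14, against 289 and 254 in wild-type libraries 15 and 20. Both mutant values lay above both wild-type values, by a small gap between 307 and 289. Mutant minus wild type on the log2 scale was 0.27 (SE 0.19, 95% interval -0.16 to 0.71; limma, adjusted p = 0.9999), and 0.18 without either mutant library 14 or wild-type library 20. Hair follicle markers had 3 of 7 genes higher in mutant with no overlap (sums 2283 and 1288 in mutant, 1372 and 1178 in wild type), and 8 of 10 keratinocyte genes were too, as given above. Over all genes, the genotypes did not overlap for 27.4%, both directions counted. The part of hair follicle and keratinocytes in the Lgr6 values was not tested. Lgr6 lies 946 kb from Ascl5 on the same chromosome, with 33 annotated genes between them.

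The ratio of Lgr5 to Lgr6 was 1.79 and 1.88 in mutant libraries 18 and 14, and 2.55 and 2.14 in wild-type libraries 15 and 20. The mutant ratios were close to each other and below both wild-type ratios. The log2 difference was -0.35, as large in 2 of the 6 assignments, again the fewest possible (exact two-sided permutation test, adjusted p = 0.444), and -0.22 without wild-type library 15. Per kilobase of exon, Lgr4, the broadly expressed relative, made up 80.1% and 78.3% of the Lgr sum in mutant libraries and 79.0% and 81.9% in wild-type libraries. Lgr6 made up 9.07% and 9.63% in mutant and 7.77% and 7.47% in wild type, and Lgr5 overlapped (10.8% and 12.1% in mutant, 13.2% and 10.7% in wild type).

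Znrf3, one of the ligases that clear Frizzled receptors (chromosome 11, 5276324 to 5444847), had 673 and 767 normalized counts in mutant libraries 18 and 14, against 675 and 663 in wild-type libraries 15 and 20. All but mutant library 14 lay within a narrow band. The log2 fold change was 0.10 (SE 0.15, 95% interval -0.24 to 0.45), and 0.01 without mutant library 14. Znrf3 and Axin2 share chromosome 11 with Tcf7 and Rnf43, so 4 of the 10 genes lie on it.

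Rnf43, the partner ligase and itself a Wnt target (chromosome 11, 87662722 to 87735539), had 246 and 371 normalized counts in mutant libraries 18 and 14, against 192 and 284 in wild-type libraries 15 and 20. Mutant library 14 was the highest and wild-type library 15 the lowest, with overlap between the others. Its log2 fold change was 0.37 (SE 0.28, 95% interval -0.27 to 1.01), the highest of the 10, and it came to 0.07 without mutant library 14 and 0.09 without wild-type library 15. General epithelial genes were likewise highest in mutant library 14, with a sum of 8281 over 5 genes against 4596 in mutant library 18 and 4619 and 4785 in wild-type libraries 15 and 20. Their part in the Rnf43 values was not tested. The ratio of Znrf3 to Rnf43 was 2.74 and 2.07 in mutant and 3.52 and 2.34 in wild type, with overlap (exact two-sided permutation p = 0.667, also 0.667 after adjustment), and the log2 difference of -0.27 turned to 0.03 without wild-type library 15.

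Rspo2, a secreted R-spondin (chromosome 15, 43020794 to 43170826), had 214 and 259 normalized counts in mutant libraries 18 and 14, against 334 and 290 in wild-type libraries 15 and 20. The genotypes did not overlap, with mutant lower. The means were 236 ± 31.9 in mutant and 312 ± 31.5 in wild type, a ratio of 0.756. Mutant minus wild type on the log2 scale was -0.40 (SE 0.20, 95% interval -0.86 to 0.06) and it did not pass (limma, unadjusted p = 0.0786, adjusted p = 0.9999). With a library left out it ranged from -0.54 without mutant library 14 to -0.27 without mutant library 18, a shift of more than 1.5 times from the value with all 4 libraries in the second case.

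Rspo3, the second R-spondin of the set (chromosome 10, 29452416 to 29535867), had 329 and 332 normalized counts in mutant libraries 18 and 14, against 314 and 294 in wild-type libraries 15 and 20. The mutant libraries were nearly equal and lay just above both wild-type libraries. The log2 fold change was 0.12 (SE 0.17, 95% interval -0.28 to 0.52), and 0.08 without wild-type library 20.

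The ratio of Rspo2 to Rspo3 was 0.649 and 0.780 in mutant libraries 18 and 14, and 1.07 and 0.987 in wild-type libraries 15 and 20. Both mutant ratios lay below both wild-type ratios, by more than the spread within either genotype. The log2 difference was -0.53, and -0.39 to -0.66 with a library left out. A difference as large came from 2 of the 6 assignments, the fewest possible (exact two-sided permutation test, adjusted p = 0.444).

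Rspo4, an R-spondin outside the 10 whose loss in humans causes absent nails, had the lowest log2 fold change of any pathway gene read here. It was at 75.2 and 56.9 normalized counts in mutant libraries 18 and 14, against 157 and 201 in wild-type libraries 15 and 20. Both mutant values lay far below both wild-type values. Its log2 fold change was -1.44 (SE 0.28, 95% interval -2.08 to -0.80), with an unadjusted p of 0.000934, the 50th smallest of all genes, and it did not pass over all genes (limma, adjusted p = 0.325). Per kilobase of exon, Rspo4 was 12.2% and 8.08% of the 4 R-spondins in mutant libraries and 20.5% and 25.4% in wild-type libraries. Rspo3 was 41.0% and 36.2% in mutant and 31.3% and 28.4% in wild type, and Rspo1 was 30.7% and 38.7% in mutant and 28.0% and 29.2% in wild type. The counts of Rspo1 overlapped, at 154 and 223 in mutant and 176 and 189 in wild type. Rspo2 overlapped, at 16.1% and 17.1% in mutant and 20.2% and 16.96% in wild type. The summed R-spondin level per kilobase was 260 and 297 in mutant libraries and 324 and 334 in wild-type libraries, with no overlap under any of the 3 scalings. Without Rspo4 the sums overlapped, at 228 and 273 in mutant and 258 and 249.6 in wild type.

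Per kilobase of exon, the mean level over all 4 libraries ran from 556 for Tcf7 through 191 for Nkd1, 136 for Axin2, 103 for Rspo3, 88.0 for Znrf3, 60.6 for Lgr5, 57.7 for Lef1, 53.7 for Rspo2 and 43.8 for Lgr6 to 41.6 for Rnf43. Tcf7 stood above all others in every library, at 423 and 406 in mutant libraries 18 and 14 and 671 and 726 in wild-type libraries 15 and 20, where no other gene exceeded 234. The exon lengths merge all annotated transcripts, from 2.625 kb for Tcf7 to 10.3 kb for Lgr5, so the order also depends on the annotation. The neighbours Nkd1 and Axin2 differed in the same direction in each library. So did Rspo3 and Znrf3, with Rspo3 above Znrf3 in each, although their ranges over the 4 libraries overlapped. From Lgr5 down to Rnf43 each gene's range overlapped that of its neighbour. The order of these neighbours also changed between libraries, so it is not fixed by these data.

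**Figure D3:**
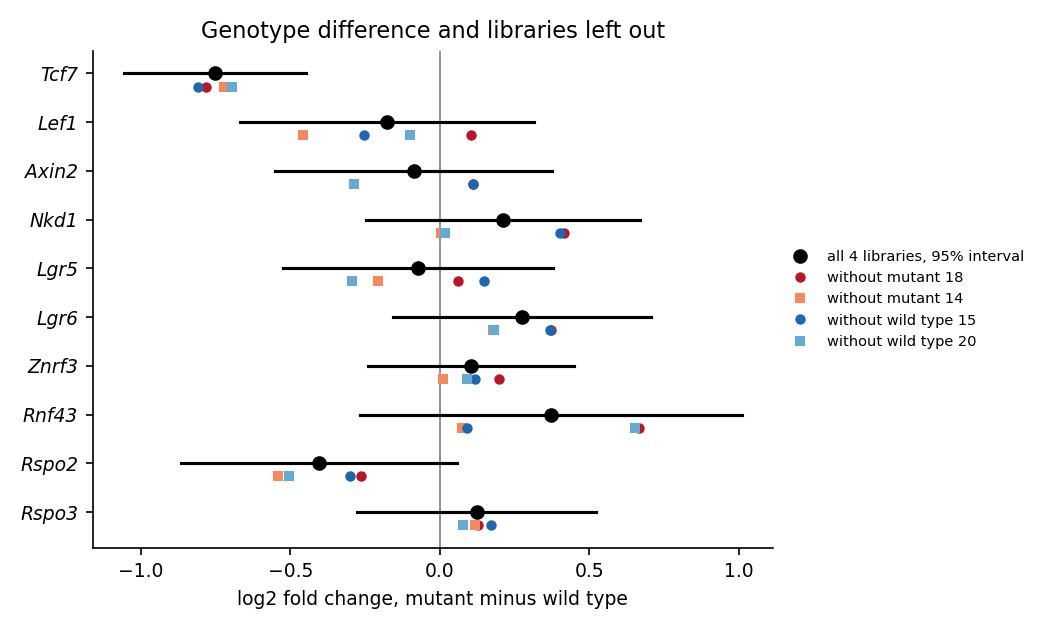
Log2 fold change (mutant minus wild type) of each gene with all 4 libraries (black, 95% interval from limma) and with each library left out (coloured points). Tcf7 stays between -0.81 and -0.70, while Lef1, Axin2 and Lgr5 have points on both sides of 0.

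The rest of the pathway was read from 4 lists with 58 genes, all of them tested. No list gene passed an adjusted p of 0.05 (limma), 2 were lower at an unadjusted p under 0.05, Fzd1 and Rspo4, and 0 were higher, beside 1.15% lower and 3.12% higher over all genes. In all, 38 of 58 lay lower, where 49.4% of all genes did. That count was 30 without wild-type library 15 and 27 without mutant library 18, and 43 and 41 without wild-type library 20 and mutant library 14. With all 4 libraries the median log2 fold change was -0.05. The genotypes did not overlap for 15 of the 58, 11 lower and 4 higher in mutant, beside 27.4% of all genes.

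Among the 16 Frizzled receptors and co-receptors, 12 lay lower and 4 higher, with a median of -0.11. Fzd1, a receptor for Wnt ligands, was at 1235 and 1420 normalized counts in mutant libraries 18 and 14 and 1949 and 1552 in wild-type libraries 15 and 20 (log2 fold change -0.39, SE 0.16, unadjusted p = 0.0408; limma, adjusted p = 0.9999). In limma, its unadjusted p was no longer under 0.05 without wild-type library 15 (log2 fold change -0.23), mutant library 18 (-0.29) or mutant library 14 (-0.49), nor with no filter on low values (0.108) or no trend (0.119). Fzd7 was at 1557 ± 198 in mutant and 1905 ± 248 in wild type, and Ror2, a co-receptor for Wnt5a, at 974 ± 155 in mutant and 1183 ± 104 in wild type. Fzd10 had the highest log2 fold change of the 4 that lay higher, at 330 and 592 in mutant and 294 and 320 in wild type, with its high value in mutant library 14 alone.

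With all 4 libraries, the 15 genes of the destruction complex and signal transducers had log2 fold changes from -0.16 to 0.22, 10 of them lower, and none was at an unadjusted p under 0.05. The range ran up to 0.54 without wild-type library 15 and 0.67 without mutant library 18, where 7 lay lower each time, and down to -0.35 without wild-type library 20. The Dishevelled genes Dvl1, Dvl2 and Dvl3 and the kinase gene Gsk3a had the smallest p in this list. Their log2 fold changes were -0.13, -0.16, -0.16 and -0.15, and all 4 overlapped between genotypes. Of the 13 TCF factors and partners outside the 10, 9 lay lower with all 4 libraries, with a median of -0.07. That direction turned when a library was left out: 4 lay lower without wild-type library 15 (median 0.10) and 4 without mutant library 18 (median 0.03), and 12 and 11 without wild-type library 20 (median -0.11) and mutant library 14 (median -0.20). The corepressor Tle2 was at 969 ± 77.2 in mutant and 1214 ± 179 in wild type, and Tle1 at 1134 ± 37.0 in mutant and 1287 ± 88.6 in wild type, with no overlap in either. The Groucho-related gene Aes and the beta-catenin coactivator gene Bcl9 overlapped (log2 fold changes -0.12 and -0.11).

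The 14 other response genes and R-spondins were split, with 7 lower and 7 higher and a median of 0.01. Without mutant library 18 the median was 0.20, with 9 higher and the highest value at 1.36. That value was of Fgf20, a low gene. It was at 5.75 and 15.1 normalized counts in mutant libraries 18 and 14 and 5.25 and 5.93 in wild-type libraries 15 and 20. The median lay between -0.03 and 0.03 without any 1 of the other libraries. Sp5, a transcription factor gene switched on by Wnt, was at 27.3 and 47.9 in mutant libraries 18 and 14 and 25.2 and 20.4 in wild-type libraries 15 and 20. Apcdd1, a membrane inhibitor of the pathway, was at 1783 and 2483 in mutant and 1817 and 1531 in wild type. Bambi, a pseudoreceptor of BMP signalling that Wnt induces, was at 1670 and 1372 in mutant and 1650 and 2129 in wild type. Sp5 and Apcdd1 were highest in mutant library 14 and Bambi was lowest there, and none of the 3 passed.

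**Figure D4:**
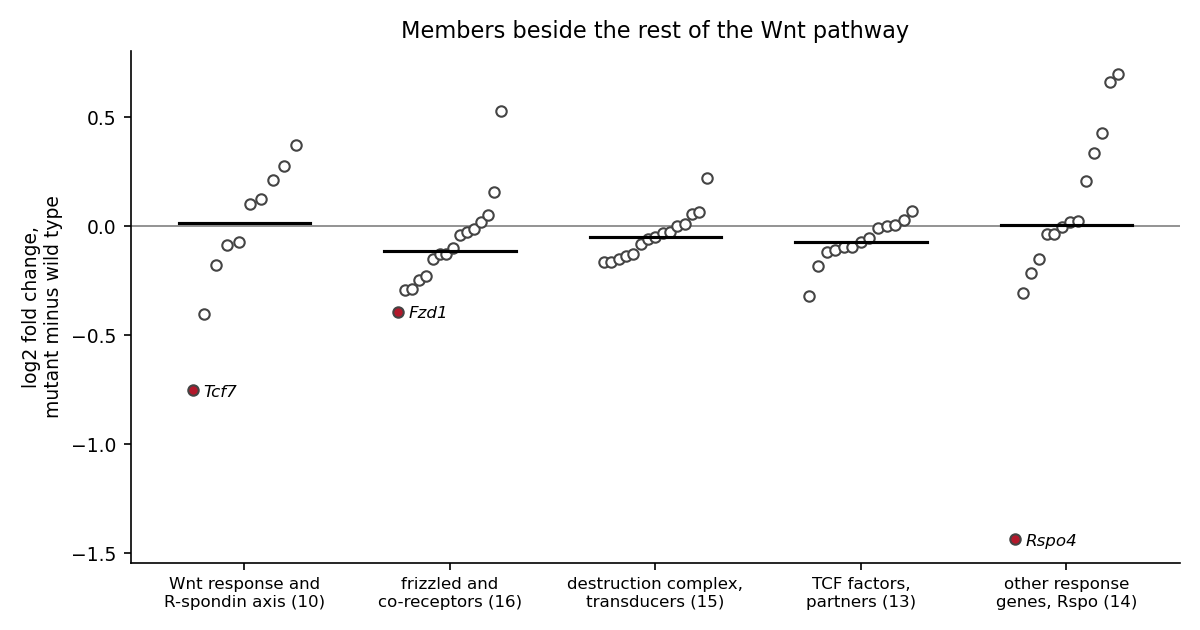
Log2 fold change (mutant minus wild type) of each of the 10 genes and of the 58 other pathway genes by list; each circle is a gene, black bars are medians and filled circles have an unadjusted p under 0.05. Filled circles are Tcf7 (-0.75), Fzd1 (-0.39) and Rspo4 (-1.44), all lower in mutant, and with all 4 libraries the list medians lie between -0.11 and 0.02.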

How the data were processed

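RNA-seq libraries of 4 mandibular dental arches were compared, 2 mutant and 2 wild type, grouped by genotype in the labels. Per the labels' protocols, RNA was column-extracted and poly(A) libraries were made with a stranded kit. Each cell of the deposited table is a signal value, a normalized count that the authors scaled between libraries. Per the submitters' processing notes, DESeq2 and build mm10 were used. How reads were aligned and counted, and whether strand was used, is not given in the sources used here, and antisense overlap is therefore uncertain: GENCODE lists antisense RNAs over Tcf7, Lef1, Axin2 and Rspo3.

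Values were transformed to log2(value + 0.5), which understates changes of low genes. Genes with a mean of at least 1 were kept (17979 of 24972), and the genotype term was tested in limma 3.58.1 (R 4.3.3), using a mean-variance trend, Benjamini-Hochberg adjustment and a threshold of 0.05. Variances were moderated, with 5.67 prior and 2 residual degrees of freedom. Each SE and p of that fit therefore leans more on other genes than on the gene's own spread. The fit was run on simulated data in which all genes had a common spread. That run does not show what could be detected in these libraries. No 2 libraries shared an identical value above 0 among tested genes. Levels per kilobase use merged GENCODE M21 exons (GRCm38) of all annotated transcripts, and start sites come from RefSeq. The order of genes per kilobase and the family shares depend on these lengths.

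The members and lists were chosen with earlier results of these data known. Named genes were the 10 members, up to 4 genes with the smallest p per pathway list, and Ascl5, Xist and Ddx3y. The remaining genes of the TCF/LEF, R-spondin and Lgr families, the marker genes and the T cell genes were read beside them, the families and T cell genes after their values were seen. Alternatives covered scaling, pseudocount, filter, variance trend and each library left out.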

Additional observations from a re-analysis of the deposited data

How the results depend on the processing

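No paired analysis was possible because the library numbers are sample codes that the genotypes do not share. Over all genes, 2 passed the threshold, against 93 with no filter on low values, where rows at 0 in every library entered the variance fit, 1 with no mean-variance trend, and 0 to 5 with a library left out. None of the 10 genes passed an adjusted p of 0.05 in any alternative run. Tcf7 kept its direction throughout, with an adjusted p of 0.247 at the lowest. The log2 fold change of Lef1 turned to 0.103 without mutant library 18, that of Axin2 to 0.111 without wild-type library 15 and 0.112 without mutant library 18, and that of Lgr5 to 0.146 and 0.0609 in the same 2 fits. The Znrf3 over Rnf43 difference turned to 0.0278 without wild-type library 15. With a library left out, the lowest values were -0.457 for Lef1, -0.288 for Axin2, -0.293 for Lgr5 and -0.562 for that ratio. The cause was not tested. Of the 58 other pathway genes, 1 was lower at an unadjusted p under 0.05 with no filter and 1 with no trend, against 2. With a library left out 1 to 3 were lower and 0 to 2 higher, and the median log2 fold change ranged from -0.143 (without mutant library 14) to 0.00997 (without mutant library 18). In fits with a library left out, 1 genotype has a lone library assumed to vary like the others. With 2 libraries per genotype, the moderated SE of the log2 fold change ran from 0.13 (Tcf7) to 0.28 (Rnf43) over the 10 genes. What was detectable therefore differed between them.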
